A study of Mus musculus with 29 samples.

Results

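Cd79a, Cd79b, Pax5, Ebf1, Ighm, Igkc, Jchain, Prdm1 and Siglecg are 9 genes of B cells and antibody-secreting cells. They were taken by gene identifier from a table of 38924 genes, and all 9 were present. The question was which sorted stem and progenitor populations of mouse bone marrow held RNA of the B lineage, library by library. RNA-seq was available for 29 libraries of C57BL/6 bone marrow cells sorted as long-term (LT-HSC) or short-term (ST-HSC) haematopoietic stem cells, or as the multipotent progenitors MPP3 and MPP4. The mice were Dnmt3a mutants or controls, and the labels describe young animals 6 weeks after they were given pIpC, an analogue of double-stranded RNA, in all groups. The Dnmt3a allele and any Cre driver are not given in the sources used here. LT-HSC gave 4 control and 3 mutant libraries, ST-HSC 3 control and 4 mutant, MPP3 3 control and 4 mutant, and MPP4 4 control and 4 mutant. Library totals were 6133994 to 10374672 counts, and 3 counts, taken as the limit that a count of 0 allows, correspond to 0.29 to 0.557 CPM. CPM is the count scaled to a common library size with TMM factors, and intervals and limits of this kind cover counting error only. The labels do not tie replicates to separate animals. The p-values therefore cover the spread between libraries, and that spread may be technical only. Libraries of other make-up stood out among the stem cells. The summed level of 12 neutrophil genes was 1873, 4383 and 12520 CPM in control LT-HSC 3, 2 and 1, against at most 723 CPM in each of the other libraries. Control ST-HSC 1 stood apart in the genes described here. Each call that changed without these 4 libraries is given with and without them.

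B cells develop in the bone marrow from lymphoid-primed progenitors under the transcription factors Ebf1 and Pax5, which switch on Cd79a and Cd79b, the signalling chains of the B cell receptor. The receptor itself is an immunoglobulin, whose heavy mu constant region is encoded by Ighm and whose kappa light chain constant region is encoded by Igkc. When a B cell becomes an antibody-secreting cell, Prdm1 (Blimp-1) represses Pax5, and Jchain supplies the joining chain that holds secreted IgM and IgA polymers together. Siglecg is an inhibitory sialic acid receptor of B cells that damps receptor signalling, and it is also found on other leukocytes.

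The members lie on 7 chromosomes of GRCm38 in the GENCODE annotation, and counts are summed over each gene. The receptor chains are Cd79a (ENSMUSG00000003379) at chr7:24897381-24902197 and Cd79b (ENSMUSG00000040592) at chr11:106311341-106314762. The immunoglobulin constant regions are Ighm (ENSMUSG00000076617) at chr12:113418558-113422730 and Igkc (ENSMUSG00000076609) at chr6:70726435-70726966. The transcription factors are Pax5 (ENSMUSG00000014030) at chr4:44524757-44710487, Ebf1 (ENSMUSG00000057098) at chr11:44617317-45008091 and Prdm1 (ENSMUSG00000038151) at chr10:44437177-44528501. The joining chain is Jchain (ENSMUSG00000067149) at chr5:88519809-88527891, and the inhibitory receptor is Siglecg (ENSMUSG00000030468) at chr7:43408204-43418358.

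Promoter sequence is shown for a receptor gene and for a secretory gene, as 1 member of each kind with a window at hand. RefSeq windows on GRCm38.p6, from 250 bases before to 50 after a gene's start, were at hand for 6 of the 9 members. The stretches below lie before the start in both RefSeq and GENCODE. The Cd79a stretch is chr7:24897247-24897380 on the plus strand, with the match to a loosened EBF1 motif in capitals. The Jchain stretch is chr5:88527898-88528147 on the minus strand, and no searched motif matched in it.
Cd79a: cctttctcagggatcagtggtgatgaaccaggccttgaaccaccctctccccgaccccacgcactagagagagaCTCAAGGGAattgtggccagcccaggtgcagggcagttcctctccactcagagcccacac
Jchain: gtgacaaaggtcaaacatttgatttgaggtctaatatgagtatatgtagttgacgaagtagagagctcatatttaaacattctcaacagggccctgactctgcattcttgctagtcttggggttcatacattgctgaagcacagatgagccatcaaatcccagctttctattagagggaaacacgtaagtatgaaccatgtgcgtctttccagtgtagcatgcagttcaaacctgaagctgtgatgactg
Both strands of each whole window were searched for the octamer ATTTGCAT of immunoglobulin promoters, for the EBF1 palindrome, and for the looser form CNCNNGGGA, which overlaps the palindrome. The looser form was chosen knowing that EBF1 acts on the Cd79a promoter. It matched once among the members, as CTCAAGGGA in Cd79a, with its first base at position -176 from the RefSeq start. Among all 32851 windows of the same length, 21.5% held the looser form, 0.904% the palindrome and 1.74% the octamer. The absence of a match says only that those letters are not in the window.

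B-lineage RNA was highest in MPP3. Compared with LT-HSC, 8 of the 9 members were higher in MPP3 (edgeR, adjusted p under 0.05), with Ebf1 as the exception, against 3.86% of 15915 genes tested that were higher. The same 8 were higher in MPP3 than in ST-HSC, where the share of all genes called higher was 5.91%. In MPP4 the 8 were lower than in MPP3, where 3.72% of all genes were lower. MPP4 was lower than LT-HSC and ST-HSC in 2 members each, Igkc and Jchain, against 4.31% and 3.52% of all genes. The median log2 difference of the members was 3.34 for MPP3 against LT-HSC, 2.81 against ST-HSC and -3.01 for MPP4 against MPP3, and over all genes it was 0.0014, -0.035 and 0.0022. These fits average control and mutant libraries, and all 9 members passed the filter on low counts over the 29 libraries. Within the MPP4 libraries alone Jchain did not pass it, so its lower level there was close to fixed in advance. In bulk RNA, fewer cells of a type and less RNA per cell cannot be told apart.

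**Figure D1:**
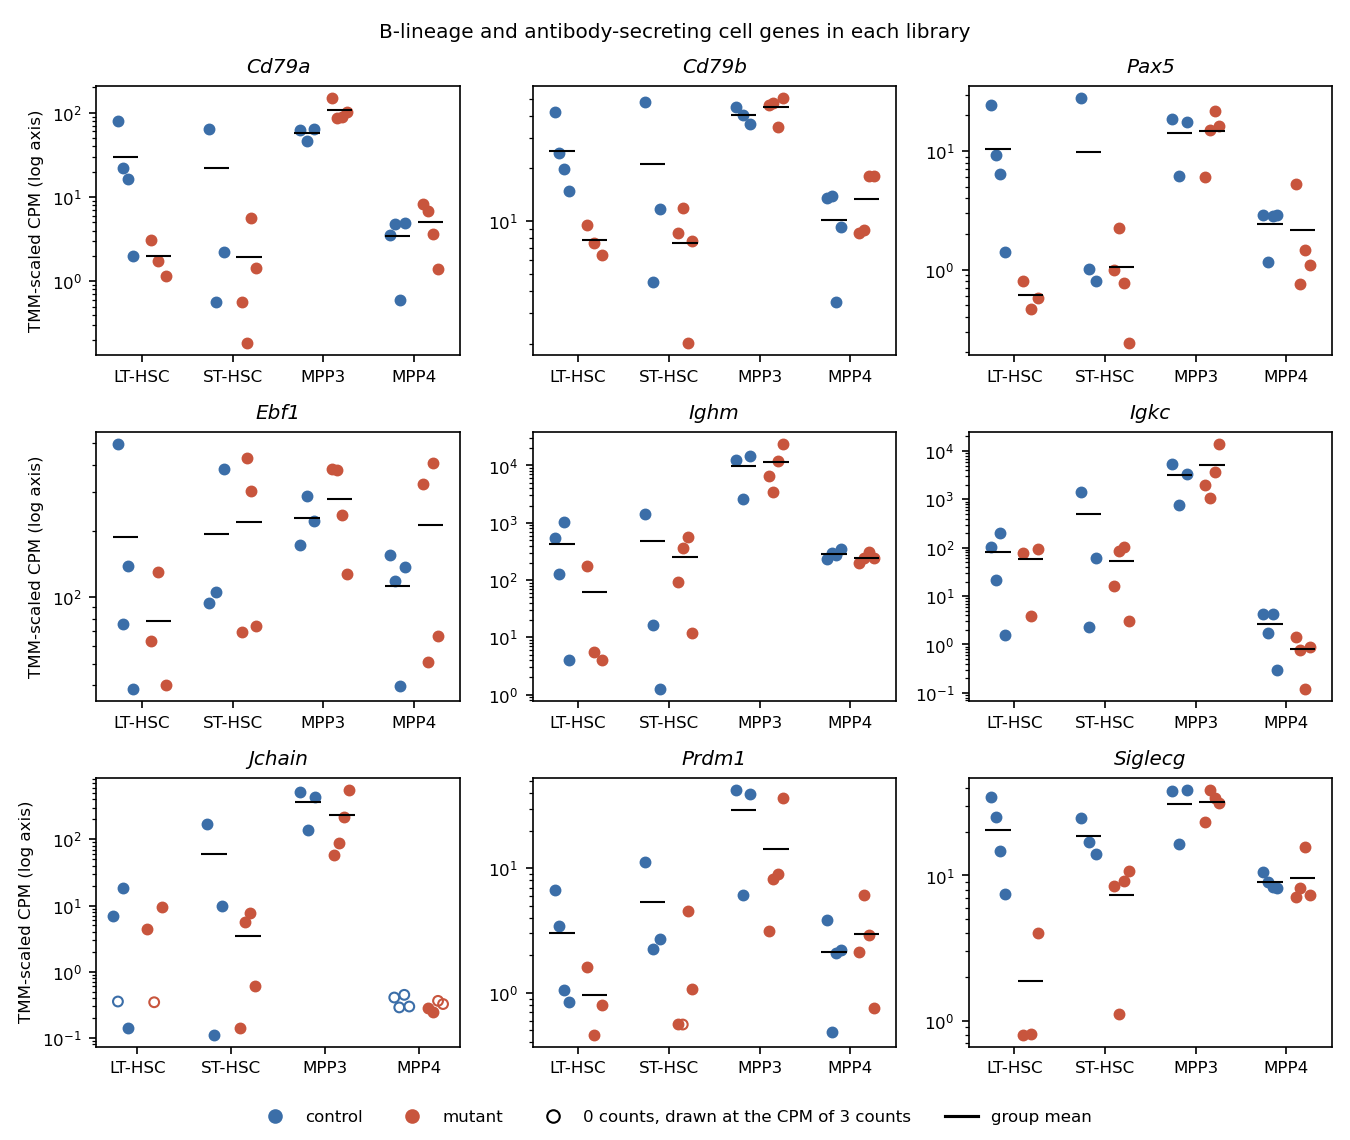
TMM-scaled CPM of each of the 9 genes (log axis) in every library, by population, with control in blue, mutant in red and the group mean as a bar where no library was at 0 counts. Open circles are libraries with 0 counts, drawn at the CPM that 3 counts would give, so a library with 1 or 2 counts can lie below them. MPP3 is the highest population for Ighm, Igkc and Jchain by median, and Jchain had 0 counts in 6 of 8 MPP4 libraries.

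Cd79a read 63.2, 46.47 and 64.79 CPM in control MPP3 1 to 3, and 148.5, 86.02, 89.73 and 101.5 CPM in mutant MPP3 1 to 4. In MPP4 it read 3.548, 4.733, 0.5993 and 4.879 CPM in the controls and 8.161, 6.786, 3.642 and 1.412 CPM in the mutants. No MPP4 library reached an MPP3 library. The fitted level was 18.9-fold lower in MPP4 than in MPP3 (log2 difference -4.24, SE 0.72, edgeR adjusted p = 0.000234). LT-HSC and ST-HSC overlapped MPP3 through 1 library each, control LT-HSC 1 at 79.04 CPM and control ST-HSC 1 at 63.29 CPM. The other LT-HSC and ST-HSC libraries ran from 0.1856 to 21.94 CPM. MPP3 was 10.1-fold above LT-HSC (log2 difference 3.34, SE 0.74, edgeR adjusted p = 0.00405) and 11.9-fold above ST-HSC (edgeR adjusted p = 0.0019). Mean MPP3 against LT-HSC was 58.15 against 29.84 CPM in the controls and 106.4 against 1.996 CPM in the mutants.

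Cd79b, the partner chain, had a narrower range. MPP3 libraries read 34.41 to 50.29 CPM with a median of 44.58, and MPP4 libraries read 3.446 to 18.21 CPM, so the 2 populations did not overlap. MPP3 was 3.01-fold above LT-HSC (edgeR adjusted p = 0.0117), 3.33-fold above ST-HSC (edgeR adjusted p = 0.00456) and 3.63-fold above MPP4 (edgeR adjusted p = 0.00225). LT-HSC overlapped MPP3 only through control LT-HSC 1, at 41.94 CPM, and ST-HSC only through control ST-HSC 1, at 47.58 CPM. Mean MPP3 against LT-HSC was 40.15 against 25.3 CPM in the controls and 44.57 against 7.816 CPM in the mutants.

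Pax5 was low in absolute terms, at 33 to 204 counts per MPP3 library. MPP3 read 18.62, 6.224 and 17.76 CPM in the controls and 6.049, 15.19, 22 and 16.28 CPM in the mutants. The highest MPP4 library, mutant MPP4 1 at 5.298 CPM, lay just under the lowest MPP3 library. The fitted MPP4 level was 6.37-fold lower (log2 difference -2.67, edgeR adjusted p = 0.00893). MPP3 was 5.67-fold above LT-HSC (edgeR adjusted p = 0.0219) and 4.5-fold above ST-HSC (edgeR adjusted p = 0.0339). Mean MPP3 against LT-HSC was 14.2 against 10.45 CPM in the controls and 14.88 against 0.6123 CPM in the mutants. LT-HSC reached 24.68 CPM and ST-HSC 27.94 CPM, above the highest MPP3 library. Both Pax5 calls, against LT-HSC and against ST-HSC, depended on single libraries. The first was lost without any 1 of mutant LT-HSC 1, 2 or 3, with an edgeR adjusted p of up to 0.0671. The second was lost without any 1 of mutant MPP3 3, mutant ST-HSC 1, 3 or 4, control MPP3 1 or 3, or control ST-HSC 2 or 3, with an edgeR adjusted p of up to 0.0836.

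Siglecg, the inhibitory receptor, ran from 16.46 to 38.89 CPM in MPP3 and from 7.159 to 15.78 CPM in MPP4, with no overlap. MPP3 was 5.09-fold above LT-HSC (edgeR adjusted p = 0.000389), 2.68-fold above ST-HSC (edgeR adjusted p = 0.017) and 3.38-fold above MPP4 (edgeR adjusted p = 0.00342). The first fold averages unlike genotypes. Mean MPP3 against LT-HSC was 31.27 against 20.48 CPM in the controls and 31.87 against 1.872 CPM in the mutants. LT-HSC reached 34.67 CPM and ST-HSC 24.88 CPM, so both overlapped MPP3. Without control ST-HSC 3 the call against ST-HSC was lost, at an edgeR adjusted p of 0.0556. Of all 15915 genes, 1.41% had every MPP3 library above every MPP4 library. Among the 9 members these were 7: Cd79a, Cd79b, Pax5, Ighm, Igkc, Jchain and Siglecg.

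Ighm had the highest median CPM of the members in MPP3, and its spread there was wide. Control MPP3 1 to 3 read 12390, 2645 and 14850 CPM, and mutant MPP3 1 to 4 read 6644, 3412, 12040 and 23650 CPM. These were 19125 to 210676 counts per library. Every MPP3 library lay above every library of the other 3 populations, whose highest values were 1034 CPM in LT-HSC (control 3), 1399 CPM in ST-HSC (control 1) and 355.1 CPM in MPP4 (control 4). The share of all genes with every MPP3 library on top was 1.09% against LT-HSC and 2.04% against ST-HSC. MPP3 was 66.3-fold above LT-HSC (log2 difference 6.05, SE 1.19, edgeR adjusted p = 0.00139), 30.6-fold above ST-HSC (edgeR adjusted p = 0.00393) and 40.1-fold above MPP4 (edgeR adjusted p = 0.00156).

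The 8 MPP4 libraries were close to each other in Ighm. They read 231.2, 294.9, 270 and 355.1 CPM in the controls and 201.5, 240.3, 309.8 and 238.4 CPM in the mutants. LT-HSC and ST-HSC libraries bracketed this range, from 4.003 to 1034 CPM and from 1.271 to 1399 CPM. The mean ± SD was 267.6 ± 50 CPM in MPP4 (SD, n = 8), against 268.8 ± 386 in LT-HSC (n = 7) and 348.6 ± 509 in ST-HSC (n = 7).

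Igkc was far lower in MPP4 than in MPP3, and no library of the 2 populations overlapped. MPP3 libraries read 5353, 758.6 and 3388 CPM in the controls and 1969, 1082, 3663 and 13950 CPM in the mutants. MPP4 libraries read 4.367, 1.739, 4.195 and 0.2987 CPM in the controls and 1.432, 0.754, 0.1214 and 0.8692 CPM in the mutants, from 1 to 32 counts each. The fitted difference between MPP4 and MPP3 was -11.48 on the log2 scale, or 2850-fold (SE 1.3, edgeR adjusted p = 1.18e-06). MPP4 was also 49.3-fold below LT-HSC (edgeR adjusted p = 0.000875) and 113-fold below ST-HSC (edgeR adjusted p = 0.00018), although libraries of both reached into its range, with lowest values of 1.549 and 2.256 CPM. Without control LT-HSC 1 to 3 and control ST-HSC 1, the difference of MPP4 from LT-HSC was -2.75 on the log2 scale. It was then no longer called, with 1 control LT-HSC library left. In the mutant libraries, all of which stayed in that fit, Igkc read 3.815 to 93.68 CPM in LT-HSC and 0.1214 to 1.432 CPM in MPP4. These did not overlap, while the control libraries of LT-HSC and MPP4 did. MPP3 was 57.8-fold above LT-HSC (edgeR adjusted p = 0.00093), without overlap, and 25.2-fold above ST-HSC (edgeR adjusted p = 0.00334), where control ST-HSC 1 at 1402 CPM overlapped it.

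The proportion of kappa light chain to mu heavy chain RNA was lower in MPP4 than in each of the other populations. Igkc in MPP4 rested on 1 to 32 counts per library. As a level per exon length, Igkc over Ighm was 0.809 to 2.09 in the 7 MPP3 libraries, with a median of 1.08. In the 8 MPP4 libraries it was 0.00139 to 0.067, with a median of 0.0169, and no library overlapped MPP3. LT-HSC and ST-HSC had medians of 1.34 and 0.833, and in each of these 1 library was far above the rest, mutant LT-HSC 3 at 83 and control ST-HSC 3 at 174. Those 2 libraries held 35 and 8 counts of Ighm beside 819 and 392 counts of Igkc.

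**Figure D2:**
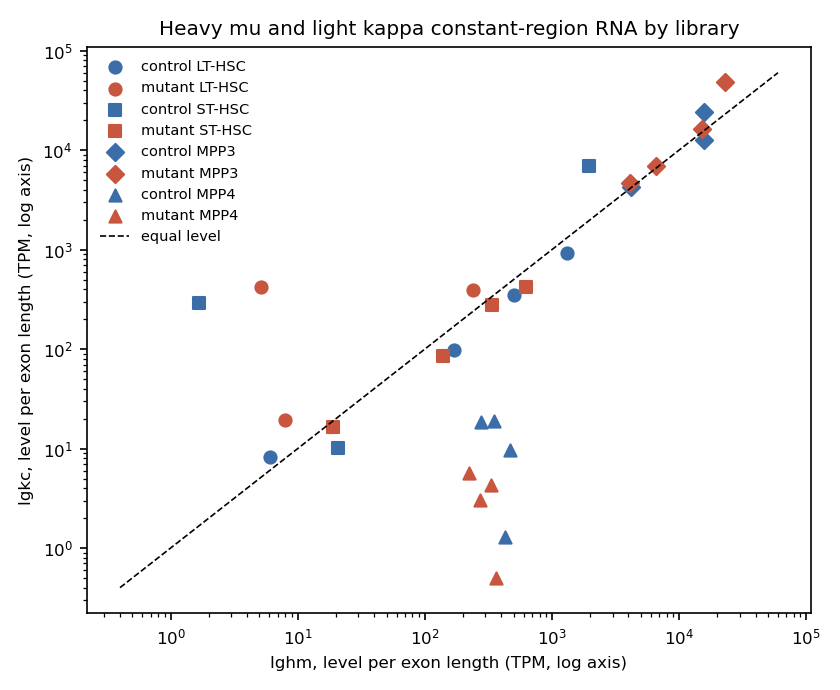
Level per exon length (TPM, both axes log) of Igkc against Ighm in the 29 libraries, with the symbol giving the population, the colour the genotype and the dashed line equal levels. MPP3 libraries lie along the line at the upper right, while the 8 MPP4 libraries lie far below it, with Igkc over Ighm of at most 0.067.

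Jchain, the joining chain of secreted IgM and IgA, was at 57.56 to 557.8 CPM in MPP3, or 314 to 4969 counts. In MPP4 it had 0 counts in 6 of 8 libraries and 2 counts in each of mutant MPP4 1 and 2. Against a floor of 3 counts in each control MPP4 library, the mean of control MPP3 was at least 993-fold higher, that of control ST-HSC at least 167-fold and that of control LT-HSC at least 17.7-fold. The last 2 limits rested on single libraries: without control ST-HSC 1 the ST-HSC limit was 14-fold, and without control LT-HSC 3 the LT-HSC limit was 6.57-fold. Jchain was lower in MPP4 than in MPP3 (edgeR adjusted p = 5.97e-06), LT-HSC (edgeR adjusted p = 0.0125) and ST-HSC (edgeR adjusted p = 0.00191). Without control LT-HSC 1 to 3 and control ST-HSC 1 the edgeR adjusted p of Jchain against LT-HSC was 0.775. MPP3 was 52.2-fold above LT-HSC (edgeR adjusted p = 0.000955) and 20.1-fold above ST-HSC (edgeR adjusted p = 0.00472). ST-HSC overlapped MPP3 through control ST-HSC 1, at 170.8 CPM.

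Prdm1, the regulator of the secretory state, was modest in level, with 42.68, 6.086 and 39.53 CPM in control MPP3 1 to 3 and 3.116, 8.14, 9.06 and 36.37 CPM in mutant MPP3 1 to 4. Values in MPP4 ran from 0.483 to 6.158 CPM, so the 2 populations overlapped. LT-HSC reached 6.705 CPM and ST-HSC 11.24 CPM, and both overlapped MPP3 as well. The fitted level in MPP3 was nonetheless 11.9-fold above LT-HSC (edgeR adjusted p = 0.00234), 7.03-fold above ST-HSC (edgeR adjusted p = 0.00925) and 8.07-fold above MPP4 (edgeR adjusted p = 0.00515). Control MPP3 2 was the lowest MPP3 control in Prdm1, Siglecg, Pax5, Cd79a, Ighm, Igkc and Jchain. Mutant MPP3 4 was the highest MPP3 mutant in Prdm1, Ighm, Igkc and Jchain.

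Ebf1 did not follow the other members. It had 263 to 3472 counts in every library, and its CPM ran from 127 to 381.5 in MPP3, 39.4 to 405.2 in MPP4, 69.62 to 426.8 in ST-HSC and 38.45 to 495.3 in LT-HSC. All 4 populations overlapped. MPP3 exceeded LT-HSC by 1.07 on the log2 scale (SE 0.53, edgeR adjusted p = 0.254), exceeded ST-HSC by 0.30 (edgeR adjusted p = 0.784) and exceeded MPP4 by 0.71 (edgeR adjusted p = 0.54). Without control LT-HSC 1, which held the highest Ebf1 value, MPP3 was above LT-HSC by 1.65 (edgeR adjusted p = 0.0432).

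Some libraries with much Ebf1 had almost no Pax5, while control LT-HSC 1 had 495.3 CPM of Ebf1 and 24.68 CPM of Pax5. Control ST-HSC 3 had 379.9 CPM of Ebf1 and 0.7944 CPM of Pax5, and mutant ST-HSC 3 had 302.7 CPM of Ebf1 and 0.7764 CPM of Pax5. Control ST-HSC 1 was the other way round, with 93.74 CPM of Ebf1 and 27.94 CPM of Pax5, the highest Pax5 value in the series. Over the 29 libraries the genes whose log2 CPM was most like that of Ebf1 were Slx1b, a subunit of a DNA structure-specific endonuclease (Pearson r = 0.89), Srpk1, a kinase of splicing factors (0.875), and Sem1, a small proteasome subunit (0.871). None of these is on the B lineage or antibody-secreting cell lists.

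**Figure D3:**
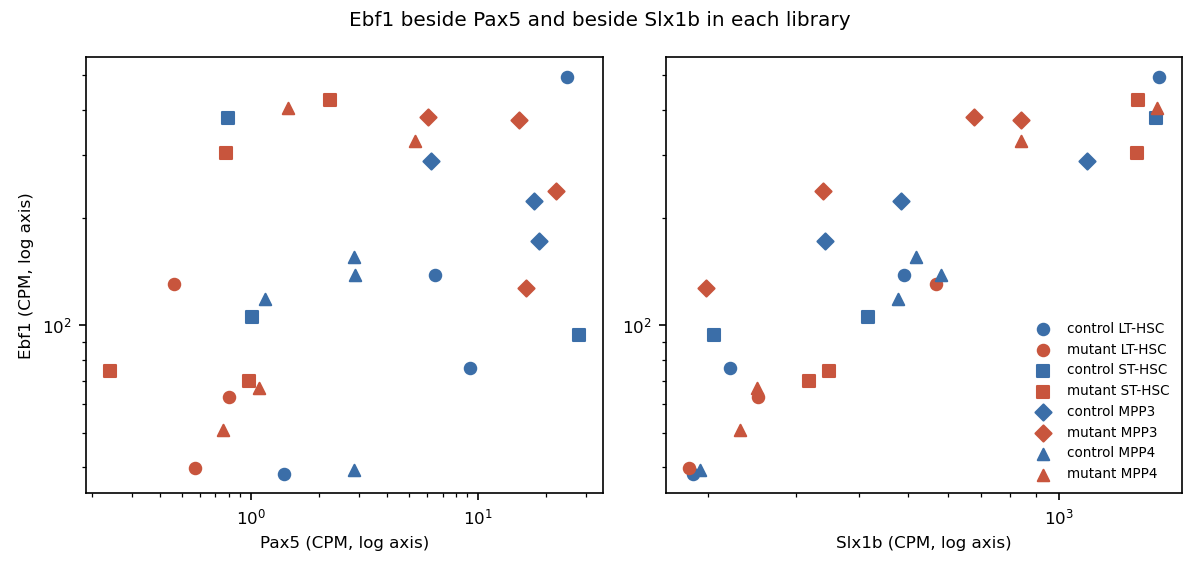
Ebf1 CPM against Pax5 CPM (left) and against Slx1b CPM (right) in the 29 libraries, all axes log, with the symbol giving the population and the colour the genotype. Ebf1 levels above that of every control MPP3 library (at most 288.8 CPM) are found with Pax5 from 0.7764 to 24.68 CPM, while Ebf1 and Slx1b rise together across populations (Pearson r = 0.89 on log2 CPM).

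**Figure D4:**
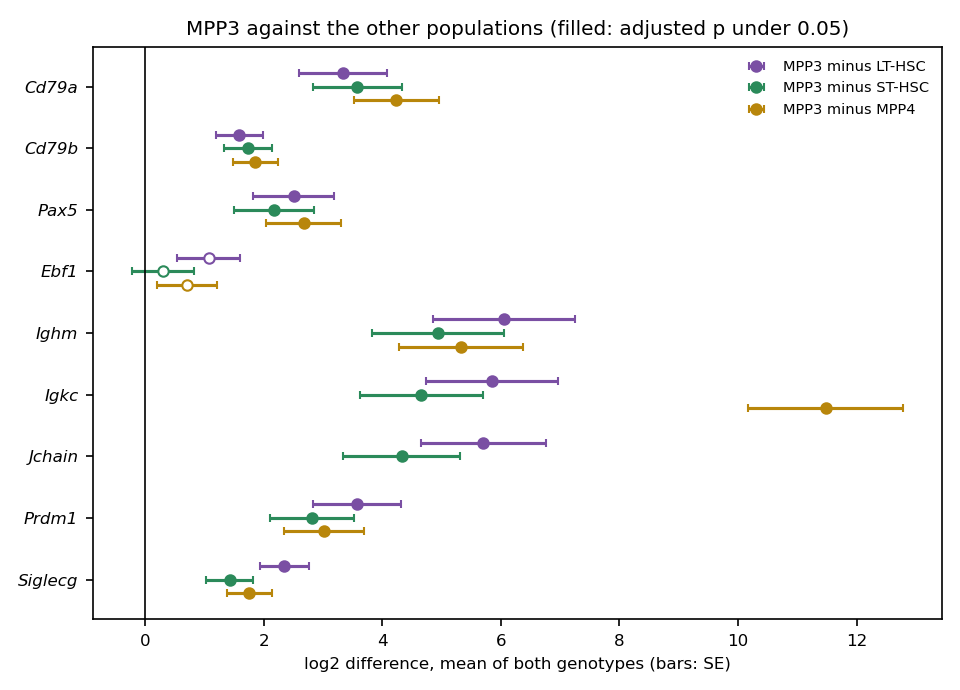
Fitted log2 differences (points) with their SE (bars) between MPP3 and each other population for the 9 genes, averaged over genotypes, with filled points for an edgeR adjusted p under 0.05. Jchain against MPP4 is left out because its MPP4 libraries are at or near 0 counts. The 3 Ebf1 points are open, and the Igkc difference from MPP4 is the largest shown.

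The nearest neighbours of the other members were given by the same measure, the Pearson correlation of log2 CPM over the 29 libraries, which share population and depth and are a description only. Cd79a was most like Cecr2 (0.934) and Vpreb3 (0.927), a gene of the B lineage list. Pax5 was most like Blnk (0.878), an adaptor of the B cell receptor, and also like Vpreb3 (0.869) and Cecr2 (0.861). Cd79b was most like Gm14005 (0.854), Il2rb (0.847) and Vpreb3 (0.838). Ighm was most like Rab44 (0.854), Igll1 (0.839), the lambda5 surrogate light chain, and Gfra2 (0.824). Igkc was most like Iglc2 (0.904), a lambda light chain constant region, Cacna1h (0.891) and Ms4a1 (0.847), which encodes CD20. Jchain was most like Iglc2 (0.9), Cacna1h (0.877) and Cplx2 (0.853). Prdm1 was most like Cacna1h (0.793), Ighg2b (0.79), an IgG constant region, and Slc26a10 (0.787). Siglecg was most like genes of another kind, Igsf6 (0.838), Elane (0.837), the elastase of neutrophil granules, and Adam19 (0.813).

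Genes of the B lineage, early and mature ones listed together, and of antibody secretion were often higher in MPP3 beside the members. Of 31 B lineage genes in the table, 30 passed the filter over the 29 libraries and were tested. Within the LT-HSC and the ST-HSC libraries alone, 25 and 19 passed. Genes that entered only through other populations could hardly come out lower in MPP3. Of the 30 tested, 16 were higher in MPP3 than in LT-HSC, with a median log2 difference of 2.49, and 17 were higher than in ST-HSC. Over all genes tested, 3.86% and 5.91% were higher, and the median log2 difference from LT-HSC was 0.0014. The 4 B lineage genes with the smallest p against LT-HSC included Lef1 and Iglc2. Lef1, a transcription factor of early lymphocytes, was 6.14-fold higher (edgeR adjusted p = 4.8e-06), and Iglc2 was 27.3-fold higher (edgeR adjusted p = 0.0013). The other two were Dntt, which adds bases at antibody gene joints, and Igll1, both near 0 in mutant LT-HSC, and their adjusted p was 1.24e-06 and 0.000579 in edgeR. Dntt read 25.8 ± 5.98 CPM in control MPP3 (SD, n = 3) and 1.58 ± 2.28 CPM in control LT-HSC (SD, n = 4).

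Of 26 antibody-secreting cell genes, 13 were higher in MPP3 than in LT-HSC, with a median log2 difference of 1.47, and 12 were higher than in ST-HSC. All 26 passed the filter over the 29 libraries, but 18 and 17 did within the LT-HSC and the ST-HSC libraries alone. The shares of all genes called higher were 3.86% and 5.91%. Xbp1, the transcription factor of the secretory programme, was 2.76-fold above LT-HSC (edgeR adjusted p = 0.000134). It read 192 ± 37.2 CPM in control MPP3 (SD, n = 3) and 66.4 ± 18.2 CPM in control LT-HSC (SD, n = 4). The endoplasmic reticulum genes Sdf2l1 and Edem1 were 3.22-fold and 2.18-fold above LT-HSC (edgeR adjusted p = 0.000813 and 0.0014). Tnfrsf17 (BCMA), a receptor that defines antibody-secreting cells, was scarce even in MPP3, at 0.138 to 5.84 CPM in the controls and 0 to 2.13 CPM in the mutants, and it had 0 counts in all 8 MPP4 libraries.

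Most companion genes that passed the test were lower in MPP4. Compared with MPP3, 13 of the 30 tested B lineage genes and 17 of the 26 antibody-secreting cell genes were lower in MPP4. Their median log2 differences were -1.86 and -1.67. Over all genes, 3.72% were lower and the median log2 difference was 0.0022. The filter on low counts ran over all 29 libraries. Within the MPP4 libraries alone, 24 B lineage and 17 antibody-secreting cell genes passed it. For genes that entered only through other populations, a lower level in MPP4 was close to fixed in advance. Iglc2, Lef1 and Ms4a1 were among the lower genes (edgeR adjusted p = 3.9e-06, 2.27e-05 and 0.000171), as were Xbp1, 2.9-fold, Ell2, a transcription elongation factor, 4.23-fold, and Edem1, 2.29-fold (edgeR adjusted p = 4.4e-05, 0.000255 and 0.000455). The only B lineage gene that was higher in MPP4 than in MPP3 was Dntt, 9.37-fold (edgeR adjusted p = 0.000102), at 280 ± 89.1 CPM in control MPP4 (SD, n = 4). Rag2, a recombinase of antigen receptor genes, was 35.6-fold above LT-HSC in MPP4 (edgeR adjusted p = 4.16e-05). Against MPP3 its log2 difference was 1.26 (edgeR adjusted p = 0.293). Il7r, the receptor of the B lymphoid growth factor IL-7, differed between MPP4 and MPP3 by 0.244 on the log2 scale, with a larger SE of 0.91 (edgeR adjusted p = 0.946). Ms4a1 and Fcmr, genes of mature B cells, had 0 counts in all 4 mutant MPP4 libraries.

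All immunoglobulin genes together took 0.525% to 4.29% of the counts in MPP3 libraries, with a median of 1.81%. They took 0.0197% to 0.035% in MPP4, 0.00222% to 0.58% in ST-HSC and 0.00112% to 0.145% in LT-HSC. Of 244 variable-region segments, 26 to 85 had at least 10 counts in an MPP3 library and 0 to 3 in an MPP4 library. Control ST-HSC 1 had 50, and the other ST-HSC libraries had at most 7. Igha and Ighg2b, constant regions of switched antibodies, were present in MPP3, at 637 ± 581 and 73.3 ± 64.3 CPM in the controls (SD, n = 3). In control MPP4 Igha had 0 counts in all 4 libraries, and Ighg2b read 0 to 0.193 CPM.

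Markers of other cells in the same libraries were as follows. The summed level of 12 macrophage genes was 152 to 366 CPM in MPP3 and 95 to 128 CPM in MPP4, without overlap. Of the 12, 6 were lower in MPP4 than in MPP3, against 3.72% of all genes. Within the MPP4 libraries alone, 9 macrophage genes and 6 T and NK cell genes passed the filter on low counts. Neutrophil genes summed to 69 to 655 CPM in MPP3 and 55.2 to 356 CPM in MPP4, and none of the 12 was called in that comparison. Genes of T and NK cells summed to 18.9 to 46.2 CPM in MPP3 and 19.6 to 33 CPM in MPP4, and of the 12 tested 2 were lower and 1 was higher in MPP4. The lower ones were Cd3e, a chain of the T cell receptor complex, and Cd2, an adhesion receptor of T and NK cells (edgeR adjusted p = 0.00854 and 0.00608). Cd3e read 2.01 to 4.89 CPM in control MPP3, 0 to 7.78 CPM in mutant MPP3 and 0 in all 8 MPP4 libraries. The higher one was Lck, a kinase of T cell receptor signalling, 2.9-fold (edgeR adjusted p = 0.0265), while Trac, the constant region of the T cell receptor, was at 0 in all 7 MPP3 libraries. Genes of plasmacytoid dendritic cells summed to 432 to 606 CPM in MPP3, 596 to 779 CPM in MPP4 and 386 to 1130 CPM in ST-HSC. The part of these cells in the results was not tested.

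LT-HSC and ST-HSC overlapped in all 9 genes, which is a description only, with no share of all genes set beside it. None of the 9 members passed the threshold between them in edgeR or DESeq2, where 1.39% of all genes did in edgeR, and 1 member, Siglecg, had an unadjusted p under 0.05 in both tools. Control LT-HSC 1 and control ST-HSC 1 carry the same number, 1705, in their descriptions, as do control MPP3 1 and control MPP4 1. Control ST-HSC 1 read 63.29 CPM of Cd79a, 1399 of Ighm, 1402 of Igkc and 170.8 of Jchain, while control ST-HSC 2 and 3 read 0.5641 and 2.224, 16.25 and 1.271, 2.256 and 62.28, and 0.1128 and 10.01 CPM. Control MPP4 1 was not high, at 3.548 CPM of Cd79a and 0 of Jchain. Neutrophil genes summed to 347.5 CPM in control ST-HSC 1, within the range of the other ST-HSC libraries. Genes of plasmacytoid dendritic cells summed to 1125 CPM in control ST-HSC 1, above the 386 to 584.2 CPM of the other 6 ST-HSC libraries. T and NK cell genes summed to 56.96 CPM in it, beside 50.2 CPM in control ST-HSC 3 and at most 19.3 CPM in the other 5. The part of these cells in its values was not tested.

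The calls for MPP3 depended on which libraries entered the fit. In control libraries alone, none of the 9 members was called for MPP3 against LT-HSC or against ST-HSC, and in mutant libraries alone 7 were called in both. Another fit left out control LT-HSC 1 to 3 and control ST-HSC 1, an alternative chosen after seeing the data. It called 8 against ST-HSC, as in the full fit. The libraries left out were themselves high in several members, and 1 control LT-HSC library was left. That fit therefore cannot show whether the calls hold. For MPP4 against MPP3, 4 of 9 were called in the control libraries alone and 4 in the mutant libraries alone. Within the libraries numbered 1702, 1704, 1705 and 1708, whose column headers share a prefix, 1, 4 and 4 members were called for MPP3 against LT-HSC, MPP3 against ST-HSC and MPP4 against MPP3. In the libraries of the other prefix the counts were 8, 5 and 4. Fewer genes of all kinds were also called in the fits of 1 genotype or 1 prefix, with the numbers given at the end. These member counts are not set apart from that general loss of calls.

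Whether the Dnmt3a mutation moved these genes was tested in each population. No member passed the threshold in edgeR in any of the 4 populations, and 0% of all genes did. In LT-HSC, 4 members had an unadjusted p under 0.05 in edgeR (Cd79a, Cd79b, Pax5 and Siglecg), as did 1185 of 13922 genes tested, and DESeq2 called those 4 members among 292 genes. In ST-HSC there were 3 members with an unadjusted p under 0.05 in edgeR (Cd79a, Igkc and Jchain) among 493 genes, in MPP3 1 (Cd79a) among 302, and in MPP4 0 among 413. DESeq2 called 0 members in these 3 populations. Pax5 in ST-HSC and Jchain in MPP4 did not pass the filter on low counts.

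In LT-HSC all 9 members were lower in the mutant, with a median log2 difference of -1.7 against 0.000893 over all genes. Siglecg read 34.67, 25.14, 14.66 and 7.464 CPM in control LT-HSC 1 to 4 and 0.8024, 0.8093 and 4.003 CPM in mutant LT-HSC 1 to 3. The groups did not overlap, and the log2 difference was -3.46 (SE 0.72, edgeR adjusted p = 0.197). Pax5 read 24.68, 9.25, 6.451 and 1.408 CPM in the controls and 0.8024, 0.4625 and 0.5719 CPM in the mutants, again without overlap (log2 difference -4.06, SE 0.90, edgeR adjusted p = 0.197). Cd79b ran from 14.79 to 41.94 CPM in the controls and from 6.405 to 9.528 CPM in the mutants (log2 difference -1.70, SE 0.40, edgeR adjusted p = 0.197). For Cd79a the groups overlapped, at 79.04, 21.94, 16.42 and 1.972 CPM in the controls and 3.109, 1.734 and 1.144 CPM in the mutants (log2 difference -3.89, edgeR adjusted p = 0.201). Over all genes, 3.42% had every control LT-HSC library above every mutant one, and of the 9 members 3 did: Cd79b, Pax5 and Siglecg.

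Neutrophil RNA differed between the genotypes in the same direction as these genes. All 12 neutrophil genes were lower in mutant LT-HSC, with a median log2 difference of -3.92, and their summed level was 110 to 12500 CPM in the controls and 111 to 503 CPM in the mutants. All 10 macrophage genes tested were lower as well. Control LT-HSC 4, the control with the lowest neutrophil sum, was also the lowest control for each of the 4 genes. Its sum of 109.7 CPM lay below every mutant, while its Cd79b, Pax5 and Siglecg lay above every mutant. Among the mutants the order was mixed. Mutant LT-HSC 2 had the highest sum, 503.4 CPM, and the lowest Pax5, 0.4625 CPM. Mutant LT-HSC 3 had the lowest sum, 111.2 CPM, with the highest Siglecg, 4.003 CPM, and the lowest Cd79a, 1.144 CPM. Without control LT-HSC 1 to 3 the log2 differences were 0.02 for Cd79a, -0.92 for Cd79b, -1.18 for Pax5 and -1.99 for Siglecg, and none was called, with 1 control library left. Without control LT-HSC 4 instead, edgeR called all 4 of them lower in the mutant, with adjusted p of 0.00187, 0.0165, 0.00261 and 0.00464. The part of neutrophil RNA in the result was not tested further.

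**Figure D5:**
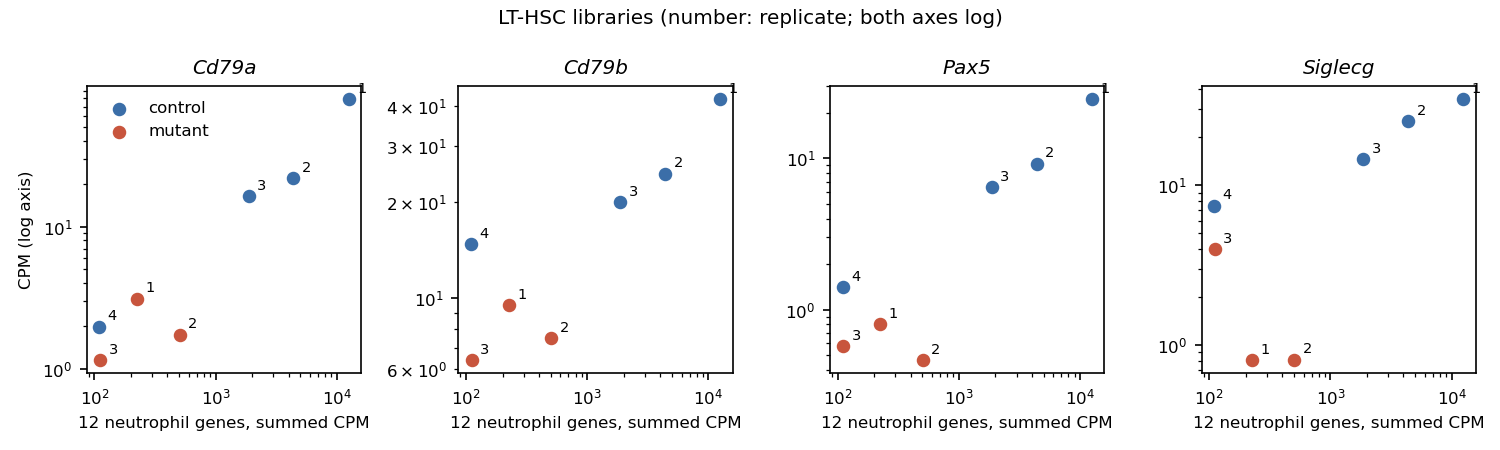
CPM of Cd79a, Cd79b, Pax5 and Siglecg against the summed CPM of 12 neutrophil genes in the 7 LT-HSC libraries, both axes log, with control in blue, mutant in red and the replicate number beside each point. The 3 controls with 1873 to 12520 CPM of neutrophil genes have the highest values of all 4 genes, and control 4, at 109.7 CPM, lies nearest to the mutants.

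In ST-HSC the genotypes did not overlap for Siglecg alone, which read 24.88, 16.92 and 14.14 CPM in the controls and 8.455, 1.113, 9.162 and 10.7 CPM in the mutants (log2 difference -1.34, SE 0.63, edgeR adjusted p = 0.998). The share of all genes with every control ST-HSC library above every mutant was 2.46%. Cd79a averaged 22.03 ± 35.7 CPM in the controls (SD, n = 3) and 1.946 ± 2.49 CPM in the mutants (SD, n = 4), with an edgeR adjusted p of 0.998. That difference rested on 1 library: without control ST-HSC 1 the mutants exceeded the controls by 0.49 on the log2 scale.

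In MPP3, Cd79a was higher in every mutant library, at 86.02 to 148.5 CPM, than in every control library, at 46.47 to 64.79 CPM. The log2 difference was 0.87 (SE 0.26), with an edgeR adjusted p of 1, and 2.14% of all genes had every mutant MPP3 library on top. The other 8 members overlapped between genotypes in MPP3. Cd79b, the partner chain, read 34.41 to 50.29 CPM in the mutants and 35.62 to 44.58 CPM in the controls. In MPP4 all 9 members overlapped between genotypes, where 1.36% of all genes had every control above every mutant and 0.936% the reverse.

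Whether the mutant effect differed between the 4 populations was tested with an interaction term. No member and no gene passed the threshold in edgeR, while 4 members (Cd79a, Cd79b, Pax5 and Siglecg) and 946 genes had an unadjusted p under 0.05, and DESeq2 called 48 genes. The lowest adjusted p among the members was 0.353, for Siglecg in edgeR.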

How the data were processed

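The deposited values were whole-number expected counts. The submitters' processing notes name Bowtie2 2.2.0, RSEM 1.2.12, edgeR 3.5.3, SAMtools 0.1.18 and the build GRCm38, while their roles are not given in the sources used here. Where RSEM divides reads between alike immunoglobulin genes, the values are uncertain. Symbols came from GENCODE for 37607 of 38924 identifiers, and the 1317 unmatched identifiers held 0.87% to 1.25% of the counts.

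The 9 genes and the companion lists were chosen with earlier results of these data known. Groups followed the titles. Tests used the quasi-likelihood method of edgeR 4.0.16 under R 4.3.3 after TMM scaling and filterByExpr (minimum count 10, minimum total 15), and Benjamini-Hochberg adjustment over all genes tested at a threshold of 0.05. Mutant comparisons used the libraries of 1 population, and population comparisons used all 29 libraries with 8 group means. Correlations used log2 CPM with a prior count of 2. Levels per length used GENCODE exon unions. The fits for MPP3 against LT-HSC and for mutant against control MPP3 were run on simulated data with the same dispersion for every gene. That simulation does not cover the wide spread of members such as Ighm, nor groups near 0 counts. Alternatives were DESeq2 1.42.0, RLE scaling, no filter, 1 genotype only, leaving out each library, a replicate block and, chosen after seeing the data, the header prefix and the libraries that stand apart. The genes named were all 9 members, the 3 genes most like each (1 of them is not reported here), at most 4 companions per list and comparison by smallest p, and markers that a result needs.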

Additional observations from a re-analysis of the deposited data

Results flagged for a closer look

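Among 44 sets of 4 libraries checked for a single library far from the others on the log2 CPM scale, 4 had one, and chance alone gives about 1 in 20. Cd79a in control MPP4 3 was 0.5993 CPM, under the 3.55 to 4.88 CPM of the other control MPP4 libraries. Pax5 in control MPP4 2 was 1.159 CPM, under 2.85 to 2.89 CPM. Siglecg in mutant ST-HSC 2 was 1.113 CPM, under 8.46 to 10.7 CPM. Siglecg in mutant MPP4 3 was 15.78 CPM, above 7.16 to 8.17 CPM.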

How the results depend on the processing

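Scaling by RLE size factors and a term for the header prefix kept every count of called genes or members within 1.5 times. Libraries with the same description number had correlations of -0.152 to 0.175 between their deviations from the group means. Those with the same title number had -0.175 to 0.0911, and libraries of other description numbers and other groups -0.205 to 0.231. Such correlations cannot show whether libraries that share a number came from the same animal. With the title number as a replicate block, 397 genes and 5 members were called in mutant LT-HSC and 1 gene in mutant MPP3. With the description number as a replicate block, 3 genes were called for the difference in mutant effect between populations.

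Subsets of the libraries gave other counts of called genes. In the order ST-HSC against LT-HSC, MPP3 against LT-HSC, MPP4 against LT-HSC, MPP3 against ST-HSC, MPP4 against ST-HSC and MPP4 against MPP3, control libraries alone gave 15, 208, 673, 262, 223 and 215 genes, and mutant libraries alone 41, 436, 322, 631, 331 and 212. Libraries of the first header prefix gave 7, 103, 334, 241, 268 and 225, and those of the second 82, 499, 393, 605, 270 and 255. Members called in control libraries alone were 0 for MPP3 against LT-HSC, MPP4 against LT-HSC and MPP3 against ST-HSC, and 4 for MPP4 against MPP3. In mutant libraries alone they were 1 for MPP4 against LT-HSC, 1 for MPP4 against ST-HSC and 4 for MPP4 against MPP3. With the first prefix they were 1 each for MPP3 against LT-HSC, MPP4 against LT-HSC and MPP4 against ST-HSC, and 4 each for MPP3 against ST-HSC and MPP4 against MPP3, and with the second they were 5 and 4 for these last comparisons.

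DESeq2 called 444 genes for ST-HSC against LT-HSC, 292 genes and 4 members in mutant LT-HSC, 2 genes in mutant MPP3 and 5 in mutant MPP4, and its likelihood ratio test called 48 genes for the difference between populations. With no filter on low counts, 24 genes were called for that difference, 189 genes and 3 members in mutant LT-HSC, 1 gene in mutant ST-HSC and 2 each in mutant MPP3 and MPP4. Without control LT-HSC 1 to 3 and control ST-HSC 1, 64 genes were called for ST-HSC against LT-HSC, 570 genes and 0 members for MPP4 against LT-HSC, and 2 genes in mutant LT-HSC. The log2 difference of Cd79a was then 0.02049 in mutant LT-HSC and 0.4907 in mutant ST-HSC, and in ST-HSC it ranged from -4.838 to 0.4907 when each library was left out. Leaving out each library gave 123 to 263 genes for ST-HSC against LT-HSC, 714 to 1344 for MPP3 against LT-HSC, 0 to 46 for the difference between populations, 0 to 417 genes and 0 to 4 members in mutant LT-HSC, and 0 to 1 in mutant MPP3. The causes of these changes were not tested. Depth limits members with few counts, such as Jchain and Igkc in MPP4, with at most 2 and 32 counts per library.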
